A study of Mus musculus with 10 samples.

Results

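Amacrine cells that express Penk, the gene for proenkephalin, were taken from mouse retinas at postnatal day 19 by their UMI counts (a UMI is a random tag, so that copies of 1 captured RNA molecule count once). A cell was a Penk cell where it held at least 2 Penk UMIs, which 382 of 32523 cells did. On the Gad side were the 66 Penk cells in which Gad1 and Gad2 summed to at least 2 UMIs and Slc6a9 was at 0. On the Slc6a9 side were the 140 in which Slc6a9 had at least 1 UMI and both Gad genes were at 0. The other 176 Penk cells lay outside both gates. Each side was set against the cells of its own gate that held no Penk UMI, 16161 on the Gad side and 5499 on the Slc6a9 side, and the sides were set against each other. The cells were thus chosen by their counts of Penk, Gad1, Gad2 and Slc6a9, which are described without a test, as are Pdyn, Igf1 and Eomes, which had been proposed as markers from these same data.

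All groups came from the same 10 libraries of 3 batches, which held 1, 5 and 4 libraries. Every animal was of the Chx10-cre-GFP strain, so these groups share the transgene and the sort. The sort kept cells without GFP, CD133 or CD73 staining that took up the viability dye Calcein Blue. Nothing in the labels ties a library to an animal of its own, so the library is the only unit of replication. The fit took out the level of each library. The p-values therefore rest on how group differences varied from library to library, part of which may be technical. That spread includes the sampling of few cells, as Gad-side Penk cells entered as sums of 3 to 15 cells per library. The same fit held their comparison cells as sums of 463 to 2598 cells.

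Proenkephalin is cut by prohormone convertases inside dense-core vesicles to give enkephalins, opioid peptides that act on delta and mu receptors. Prodynorphin, from Pdyn, gives dynorphins, which act on kappa receptors. Gad1 and Gad2 encode the enzymes that make GABA, and Slc6a9 encodes GlyT1, the glycine transporter of glycinergic amacrine cells. Enkephalin has long been known in amacrine cells, where peptides are stored beside GABA or glycine.

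Libraries held 950 to 4738 cells and 6302659 to 26028492 UMIs. Libraries 5 and 6 shared 312 cell barcodes, against 3 to 59 for every other pair, and 3 Penk cells of the 2 sides carried a barcode that another library of their batch also held. Without such cells the number of genes that passed on the Gad side, described further on, was 158 in place of 166, and on the Slc6a9 side it stayed at 1180. No doublet caller was run. Of the 101 Penk cells with at least 2 Gad UMIs and Slc6a9 as well, 77.2% held more than 2 times the median UMI total of their library, against 27.3% on the Gad side and 5.71% on the Slc6a9 side.

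Penk cells were a smaller share of the Gad gate than of the Slc6a9 gate. They made up 0.433% ± 0.185 of the Gad gate and 2.56% ± 0.935 of the Slc6a9 gate (SD, n = 10 libraries). On the Gad side the libraries ran from 0.115% to 0.685%, and on the Slc6a9 side from 1.08% to 4.69%, so the ranges did not overlap. The median Penk cell held 3 Penk UMIs on each side, and the most were 8 on the Gad side and 10 on the Slc6a9 side. Median depth was 4253.5 UMIs on the Gad side against 5412 in its Penk = 0 cells, and 4322.5 on the Slc6a9 side against 3226. The gates used 1 or 2 UMIs, so a cell of low depth can miss them. They were also unequal, and 176 Penk cells lay outside both. The shares therefore describe the gates and not all GABAergic or glycinergic amacrine cells.

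**Figure D1:**
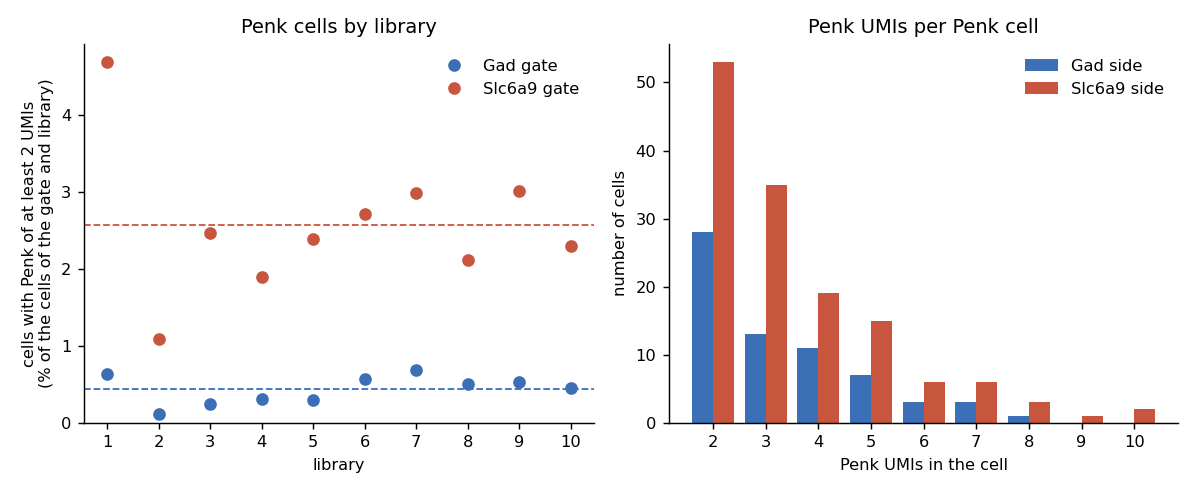
Left, share of the cells of each gate and library that held at least 2 Penk UMIs (percent; dashed lines, means over 10 libraries); right, number of Penk cells by their Penk UMIs. Every Slc6a9-gate share is above every Gad-gate share, with library 1 highest at 4.69%, and most Penk cells of each side sit at 2 to 5 UMIs.

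Amacrine markers were present on each side. Pax6, a retinal homeobox factor that mature amacrine cells keep, was detected in 87.9% of Gad-side and 93.6% of Slc6a9-side Penk cells. Tfap2b, an amacrine transcription factor, was detected in 92.4% and 92.9%, and Slc32a1, the vesicular transporter for GABA and glycine, in 87.9% of each. Markers of erythrocytes were at 0 on both sides and all 5 microglial markers were at 0 on the Gad side. The summed level of 7 Müller glia markers had a median of 1145 CPM (counts of the gene per 1e6 UMIs of the summed cells) in Gad-side Penk cells and 1251 CPM in their Penk = 0 cells, and of 640 CPM and 519 CPM on the Slc6a9 side. Rod markers had a summed median of 135.3 CPM in Slc6a9-side Penk cells (58.7 to 183.9) and 68.5 CPM in their Penk = 0 cells (51.6 to 146.9), and retinal ganglion cell markers 97.2 CPM (53.7 to 142.7) and 205.2 CPM (136.4 to 228.5), all with overlap. Of the 5 rod markers none was at 0 there, and of the 6 ganglion cell markers Pou4f1 and Pou4f2 were.

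Igf1, Eomes and Pdyn were high among Gad-side Penk cells and low or at 0 among Slc6a9-side Penk cells. Penk (chromosome 4, 4133531 to 4138819, minus strand, GRCm38) ran from 234.6 CPM through a median of 481.8 to 1146 CPM over the 9 libraries with at least 3 Gad-side Penk cells. On the Slc6a9 side it ran from 515 through 718.1 to 1113 CPM over 10 libraries, which overlaps the Gad side. By construction it was 0 in the cells compared.

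Igf1 (chromosome 10, 87858265 to 87937042, plus strand), which encodes an insulin-like growth factor, was at 70.4 CPM at the lowest, 260.5 at the median and 450.9 at the highest in Gad-side Penk cells. In Gad-gate Penk = 0 cells it was at 5.13, 8.90 and 12.2 CPM, so every Gad-side Penk library was above every comparison library. The order was the other way on the Slc6a9 side, where Penk cells had 0, 15.2 and 59.9 CPM and Penk = 0 cells 11.8, 39.9 and 186.5 CPM, with overlap. Igf1 in those Slc6a9-gate Penk = 0 cells moved with the batch, with a mean of 33.7 CPM in batch 2 and 160.0 CPM in batch 3.

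Eomes (chromosome 9, 118478212 to 118486132, plus strand), a T-box transcription factor, was at 34.0, 140.9 and 312.6 CPM in Gad-side Penk cells and at 14.1, 16.0 and 22.6 CPM in Gad-gate Penk = 0 cells, with no overlap. No UMI of Eomes was counted in the 140 Slc6a9-side Penk cells. Pdyn (chromosome 2, 129686565 to 129699844, minus strand) was at 0, 46.9 and 239.1 CPM in Gad-side Penk cells and at 4.97, 8.12 and 10.2 CPM in Penk = 0 cells, where the library at 0 made the groups overlap. It had a mean of 41.7 CPM in batch 2 and 104 CPM in batch 3, against 7.71 and 8.50 CPM in the Penk = 0 cells of those batches.

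**Figure D2:**
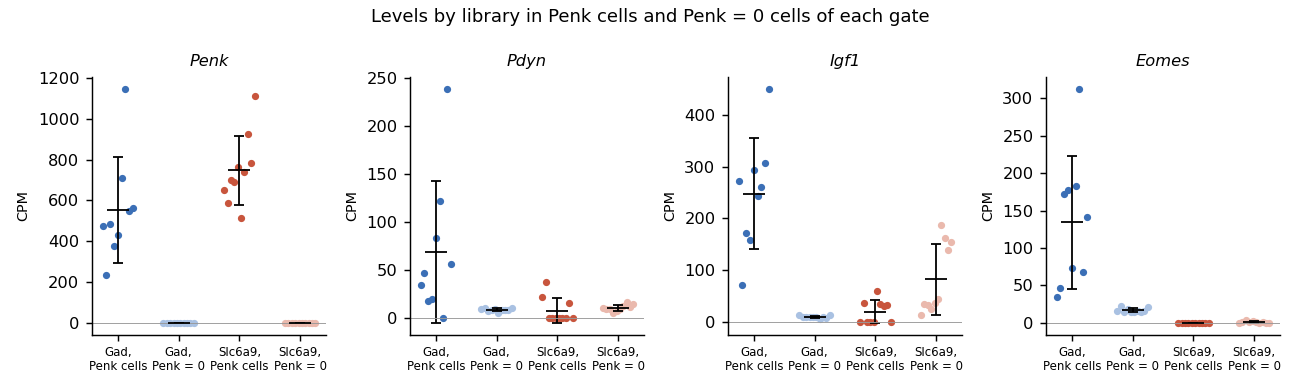
Levels of Penk, Pdyn, Igf1 and Eomes in CPM for each library (points) in Penk cells and Penk = 0 cells of each gate, with mean ± SD (black; n = 9 libraries for Gad-side Penk cells and 10 for each other group). Igf1 and Eomes are above all comparison libraries on the Gad side, and Eomes is at 0 in every library of Slc6a9-side Penk cells.

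Shares of cells were compared after each cell was thinned to 2000 UMIs. At that depth 44.1% of 59 Gad-side Penk cells (95% exact interval 31.2 to 57.6%) held an Igf1 UMI, against 1.51% of 14092 Gad-gate Penk = 0 cells. For Eomes the shares were 32.2% (20.6 to 45.6%) and 1.71%, and for Pdyn 15.3% (7.22 to 27.0%) and 1.72%. Thinning left out 7 Gad-side Penk cells and 2069 Penk = 0 cells that were shallower. Unthinned, the shares in Gad-side Penk cells were 53.0% for Igf1, 39.4% for Eomes and 28.8% for Pdyn. Intervals cover counting error only.

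On the Slc6a9 side Pdyn was found in 2.22% of 135 thinned Penk cells and 2.01% of 4089 Penk = 0 cells, and Igf1 in 1.48% and 13.5%. An Eomes UMI was found in 0 of 135 thinned Penk cells, where 3 cells would be 2.22% and the exact interval reaches 2.70%, a limit on cells with a UMI and not on cells that express the gene. Unthinned, 13 of the 66 Gad-side Penk cells (19.7%) held all 3 of Pdyn, Igf1 and Eomes and 25 (37.9%) held none of them. Of the 16161 Gad-gate Penk = 0 cells, 31 held all 3. The Gad side was therefore mixed in these markers. Gad-side cells with a single Penk UMI, just outside the threshold, held Igf1 in 11.2% of 188 cells, those with 2 or more in 53.0%.

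Clusters were built from 2966 variable genes without the 7 genes above. Most Slc6a9-side Penk cells fell together and Gad-side Penk cells did so in part. Cluster 40, with 347 cells, held 105 of 140 Slc6a9-side Penk cells (75.0%, 95% exact interval 67.0 to 81.9%) and 3 of the Gad side. It was led by Car3, A930001A20Rik, 2010007H06Rik, Penk and Ppp1r17. Cluster 66, with 81 cells, held 29 of 66 Gad-side Penk cells (43.9%, 31.7 to 56.7%) and none of the Slc6a9 side. It was led by Penk, Igf1, Eomes, Pdyn, Serpini1 and Fxyd6. Both intervals pool cells of all libraries and cover counting error only. By library the shares ran from 61.5 to 88.2% in cluster 40 and from 0 to 85.7% in cluster 66. The other 37 Gad-side Penk cells were spread over 24 clusters with at most 3 in any. Igf1, Eomes and Pdyn were not particular to cluster 66. Pooled over all its cells, Eomes stood at 316 CPM in cluster 66 and at 374 CPM in cluster 43. Igf1 stood at 641 CPM in cluster 66 and 454 CPM in cluster 0. Pdyn stood at 272 CPM in cluster 66, 184 CPM in cluster 27 and 138 CPM in cluster 30.

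A second cluster of the Slc6a9 side, cluster 13, held 24 Slc6a9-side Penk cells among its 719 cells and was led by Slc17a8, the vesicular glutamate transporter VGLUT3, and Car3. Cluster 19, led by Gsta4 and with Ebf1 and Lamp5 high, held 7 more. Within cluster 40, 57.7% ± 12.4 of the cells were Penk cells, and within cluster 66 56.9% ± 24.0 (SD, n = 10 libraries). In cluster 13 the share was 6.93% ± 4.04.

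The share of the Gad side that lay in cluster 66 differed between batches. It was 9 of 36 cells in batch 2 and 19 of 27 in batch 3, with 1 of 3 in batch 1. Libraries 2 and 5 had none of their Gad-side Penk cells there. For the Slc6a9 side the shares in cluster 40 were 74.1% in batch 2 and 76.7% in batch 3. The part of the batch in the Gad-side results was not tested beyond the fits within each batch given below.

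Gad-side Penk cells inside and outside cluster 66 are described here without a test. Penk, Igf1 and Eomes were kept out of the clustering, but other genes of these cells built it. The 29 inside had a median of 3480 UMIs and the 37 outside 8184. Pooled levels inside and outside were 1132 and 313.5 CPM for Penk, 692.0 and 122.1 CPM for Igf1, and 335.5 and 66.6 CPM for Eomes. Fxyd6 stood at 1583 and 346.8 CPM. In the 15 Penk = 0 cells of cluster 66 the pooled level was 542.3 CPM for Igf1, 298.3 CPM for Eomes and 433.8 CPM for Pdyn, and no Penk UMI was counted in them.

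Slc6a9-side Penk cells also differed by cluster. Slc17a8 stood at 1504 CPM in the 24 cells of cluster 13 and at 2.16 CPM in the 105 of cluster 40. Apela stood at 159.6 CPM in cluster 40 and at 0 in cluster 13, and Igfbp4 at 660.0 and 112.8 CPM. Car3 was high in both, at 3084 and 2332 CPM, and at 340.7 CPM in the other 11 cells. The 82 Penk = 0 cells of cluster 40 had 1653 CPM of Car3 and 569.6 CPM of Igfbp4, with no Penk UMI.

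**Figure D3:**
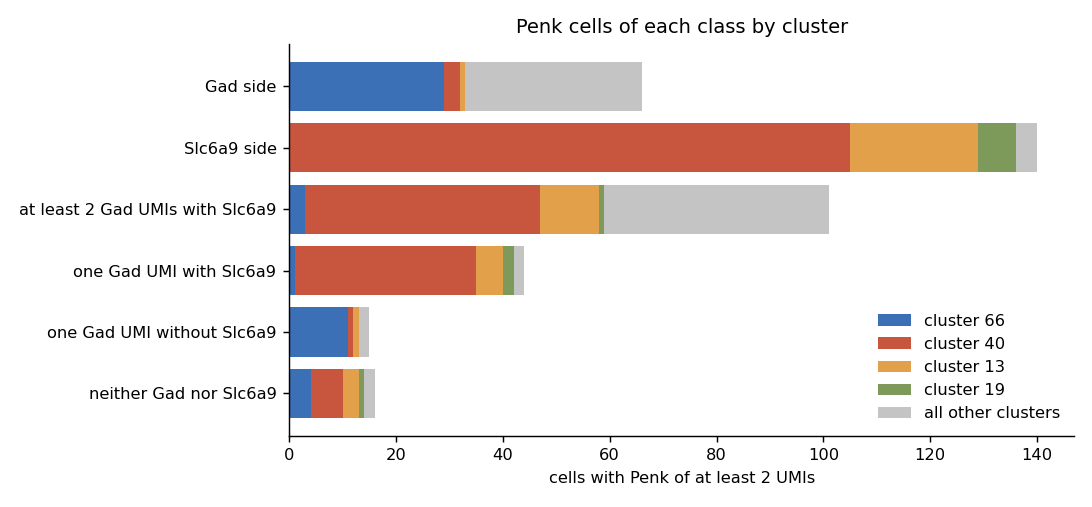
Number of cells with at least 2 Penk UMIs in each class of Gad1, Gad2 and Slc6a9 counts (rows), coloured by cluster. The Slc6a9 side lies mainly in cluster 40 (105 of 140), whereas 29 of 66 Gad-side cells lie in cluster 66 and 33 in clusters other than the 4 named.

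Gad-side Penk cells were compared with Gad-gate Penk = 0 cells gene by gene, on counts summed per library. Of the 455847 UMIs of these 66 Penk cells, 95379 came from the 29 in cluster 66 and 360468 from the 37 outside it. The changes below are therefore those of a mixed group and not of cluster 66 alone. Fxyd6, the protease inhibitors Serpini1 and Serpine2 and the protocadherin Pcdh8 were among the highest, and the precursors of VIP, CART and the tachykinins among the lowest. Of 9121 genes tested by edgeR's quasi-likelihood test with Benjamini-Hochberg adjustment, 166 passed at an adjusted p of 0.05 (1.82%), with 99 higher (1.09%) and 67 lower (0.735%). The median log2 change over all genes was 0.04. Within batches, 94 passed in batch 2 and 176 in batch 3, and batch 1 has a single library. Without library 7, 107 passed. At least 3 markers of another class were held by 34 of the 66 Penk cells (51.5%) and 7927 of the 16161 Penk = 0 cells (49.05%). Without such cells 112 passed. Among cells at or above the median depth of their library 41 passed, and with TMM factors over all genes 61 were higher and 442 lower, with the median over all genes at -0.22.

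Fxyd6, a regulator of the sodium pump, ran from 305.0 through 513.1 to 1667 CPM in Gad-side Penk cells and from 132.1 through 143.2 to 168.3 CPM in their Penk = 0 cells. Every Penk library was above every comparison library. The log2 change was 2.16 ± 0.17 (SE, edgeR adjusted p = 1.37e-14). It was higher in 9 of 9 libraries, which the rule for naming the highest genes required.

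Serpini1, which encodes the protease inhibitor neuroserpin, was at 164.2, 344.1 and 1250.2 CPM against 71.0, 96.9 and 121.9 CPM. These groups did not overlap either. The log2 change was 2.15 ± 0.19 (edgeR adjusted p = 1.71e-12), and by the same rule it was higher in 9 of 9 libraries.

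Serpine2, a second serine protease inhibitor (protease nexin), rose by 2.05 ± 0.28 and Pcdh8, a protocadherin, by 2.13 ± 0.32 on the log2 scale. Ptprt, a receptor tyrosine phosphatase of synapses, rose by 2.31 ± 0.42 and Chn2, a Rac GTPase-activating protein, by 1.92 ± 0.33. Kcna2, a voltage-gated potassium channel subunit, rose by 1.78 ± 0.27, whereas its relative Kcna1 was 0.80 ± 0.19 lower. All 6 changes passed with every library left out in turn. Slc6a7, the proline transporter, was 1.53 ± 0.32 higher, but its adjusted p rose to 0.0541 without library 6. Tmem215 and Igsf3, which also ranked among the highest, lost their call without several single libraries (highest edgeR adjusted p 0.114 and 0.146).

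Of 18 members of the GABA and glycine receptor list that were tested, 3 rose and none fell, against 1.09% and 0.735% of all genes. The list median was 0.06. Gabrg1, a GABA-A receptor subunit, changed by 1.89 ± 0.40 and was higher in 8 of 9 libraries. Igfbp2, which binds insulin-like growth factors, was the member of the IGF list that passed among 7 tested, with a log2 change of 1.08 ± 0.17. Igf1 itself was left out of the tests.

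Penk and Pdyn were left out of the tests in every comparison, so no count of neuropeptide genes that rose or fell includes them. Of 10 neuropeptide genes tested, 4 fell, none rose and 6 did not pass, where 0.735% of all genes fell and 1.09% rose. The list median was -1.92. Vip, for vasoactive intestinal peptide, was at 0, 0 and 64.4 CPM in Gad-side Penk cells and at 281.3, 391.8 and 755.9 CPM in Penk = 0 cells. The groups did not overlap, and the change was -4.23 ± 0.59 (edgeR adjusted p = 2.11e-06). Cartpt, for the CART peptide, was at 28.2, 93.9 and 1441 CPM against 1849, 2506 and 3241 CPM, with a change of -3.36 ± 0.43. Tac1 and Tac2, precursors of substance P and neurokinin B, changed by -3.91 ± 0.72 and -2.51 ± 0.44. Vip, Tac2 and Cartpt ranked first among the leading genes of clusters 28, 43 and 14, and Tac1 second in cluster 32.

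Of 15 genes of peptide processing and the dense-core vesicle, 4 fell, none rose and 11 did not pass. Over all genes 0.735% fell and 1.09% rose, and the list median was -0.09. Scg2, a secretogranin, was at 70.4, 182.6 and 408.5 CPM against 644.2, 815.2 and 970.8 CPM, with no overlap and a change of -2.07 ± 0.19 (edgeR adjusted p = 2.89e-12). Pcsk2, a prohormone convertase that cuts proenkephalin among others, changed by -1.83 ± 0.38, and Chga and Chgb, chromogranins, by -0.74 ± 0.17 and -0.57 ± 0.13. The call for Chgb was lost without library 6 (adjusted p 0.0787).

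Of the transcription factors, 5 of 49 tested rose and 1 fell, against 1.09% and 0.735% of all genes, with a median of -0.09. Lmo4, a LIM-only cofactor, fell by 1.73 on the log2 scale, and Sox11 was 2.28 ± 0.47 higher, though without library 4 its adjusted p was 0.0528. Of the calcium-binding genes, 3 of 16 fell and none rose. Calb2, calretinin, changed by -1.59 ± 0.29 and Vsnl1 by -0.64 ± 0.11. Cbln4, a secreted synapse organiser, changed by -2.51 ± 0.48. Tpbg, a membrane glycoprotein, changed by -3.10 ± 0.49. Reln, which encodes reelin, changed by -1.63 ± 0.42, at an adjusted p of 0.124 without library 6.

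Some genes that led the Slc6a9 side also passed on the Gad side, and they came from few cells. Car3 passed there with a log2 change of 4.76 and 2010007H06Rik with 5.20. Of the 62 Car3 UMIs in Gad-side Penk cells, 46 were in the 4 cells that lay in clusters 40 and 13, 16 in 2 further cells and 0 in the 29 cells of cluster 66. All 6 UMIs of 2010007H06Rik were in the 4 cells of clusters 40 and 13.

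Slc6a9-side Penk cells differed from the Penk = 0 cells of their gate in more genes. They entered with 10 sums of 6 to 26 cells, and Gad-side Penk cells with 9 sums of 3 to 15 cells. The part of this in the 2 numbers of genes was not tested. Car3, the peptide genes Apela, Nppc and Calca, the nicotinic subunit Chrnb3 and the AMPA receptor subunit Gria1 were higher, and all 5 genes of the AII list were lower. Of 9121 genes, 1180 passed (12.9%), with 614 higher (6.73%) and 566 lower (6.21%), and the median over all genes was 0.00. Within batches 621 passed in batch 2 and 853 in batch 3. The depth of 4322.5 against 3226 UMIs per cell moved with this comparison, and among cells at or above the median of their library 893 passed. At least 3 markers of another class were held by 35 of the 140 Penk cells and 642 of the 5499 Penk = 0 cells (11.7%), and without such cells 1159 passed; the part of the rod and ganglion cell marker levels given above was not tested otherwise. With TMM factors over all genes 434 were higher and 1041 lower, with the median over all genes at -0.17.

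Car3 (chromosome 3, 14863512 to 14872523, plus strand), a cytosolic carbonic anhydrase, ran from 1881 through 2768 to 3145 CPM in Slc6a9-side Penk cells and from 98.0 through 131.9 to 267.6 CPM in their Penk = 0 cells. Every Penk library was above every comparison library. The log2 change was 4.34 ± 0.14 (edgeR adjusted p = 6.46e-33). It was higher in 10 of 10 libraries, which the rule for naming the highest genes required.

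2010007H06Rik, annotated as an antisense RNA on chromosome 9, was at 252.1, 310.6 and 500.1 CPM against 1.99, 6.35 and 14.2 CPM, with a change of 5.86 ± 0.20. Pcp4, a calmodulin-binding protein, was at 3690.2, 6154 and 9958 CPM against 1052, 1318 and 2429.8 CPM, with a change of 2.14 ± 0.11 (edgeR adjusted p = 2.16e-24). Neither pair of groups overlapped.

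Apela, Nppc and Calca, which encode peptides, were among the highest. Apela, for the apelin receptor ligand ELABELA, was at 57.5, 134.1 and 183.9 CPM against 0.664, 1.89 and 9.18 CPM and changed by 5.61 ± 0.32. Nppc, for C-type natriuretic peptide, was at 24.0, 61.6 and 210.1 CPM against 0, 2.77 and 4.94 CPM and changed by 4.78 ± 0.38. Calca, for calcitonin and CGRP, changed by 4.08 ± 0.27. All 3 were separate from the comparison libraries. In the neuropeptide list of 10 tested genes, 1 rose (Nppc) and 3 fell, against 6.73% and 6.21% of all genes. Among those that fell were Sct, for secretin, by 3.45 and Cck, for cholecystokinin, by 2.13 on the log2 scale.

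The dense-core vesicle list was split, with 3 of 15 higher and 2 lower (6.73% and 6.21% of all genes) and a median of 0.07. Vgf, a granin-like peptide precursor, was at 73.4, 190.8 and 469.3 CPM against 24.1, 37.7 and 50.1 CPM, with no overlap and a change of 2.64 ± 0.23. Pcsk2 was lower, at -1.98 ± 0.28, as it was on the Gad side. Igfbp4, an IGF-binding protein, was at 293.6, 489.1 and 782.1 CPM against 35.4, 45.4 and 85.3 CPM, with a change of 3.41 ± 0.16, while Igfbp5 changed by -1.87 ± 0.54.

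Chrnb3, a nicotinic acetylcholine receptor subunit, was at 19.2, 68.1 and 128.4 CPM against 0.664, 4.15 and 6.56 CPM. It changed by 4.37 ± 0.40 (edgeR adjusted p = 1.94e-13) and, as the naming rule required, was higher in 10 of 10 libraries. Chrna6, a subunit that pairs with it in other neurons, changed by 2.86 ± 0.34, higher in 9 of 10 libraries. In the list of receptors for acetylcholine, monoamines, adenosine and cannabinoids, 4 of 15 rose and 3 fell, with a median of -0.24. Over all genes 6.73% rose and 6.21% fell. The dopamine receptor Drd4 and the muscarinic receptor Chrm2 were lower, by 2.92 ± 0.43 and 3.14 ± 0.71.

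Glutamate receptor genes were higher in 8 of 20 tested and lower in 2 (6.73% and 6.21% of all genes), with a median of 0.07. Gria1, an AMPA receptor subunit, was at 147.1, 257.8 and 358.3 CPM against 35.5, 51.7 and 69.4 CPM, with no overlap and a change of 2.28 ± 0.17 (edgeR adjusted p = 3.64e-17). Grin2a, an NMDA receptor subunit, changed by 2.47 ± 0.23 and the AMPA auxiliary subunit Cacng4 by 1.78 ± 0.16. Among GABA and glycine receptors 3 of 18 rose and 3 fell. Gabrb1 and Glra3 rose by 2.13 ± 0.29 and 1.74 ± 0.27.

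All 5 genes of the AII list were lower. Gjd2, connexin 36 of electrical synapses, was at 0, 41.9 and 119.8 CPM in Penk cells and at 288.9, 340.5 and 417.1 CPM in Penk = 0 cells, with no overlap and a change of -2.47 ± 0.21 (edgeR adjusted p = 2.01e-14). Prox1, a homeobox factor, changed by -2.49 ± 0.29, Calb2 by -1.96 ± 0.27 and Dab1, a reelin adaptor, by -1.49 ± 0.21. The list's summed level had medians of 462 CPM and 1788 CPM. Both tested genes of the VG3 list were higher. Slc17a8 was at 0, 207.5 and 1008 CPM against 53.7, 78.6 and 175.8 CPM, changed by 1.85 ± 0.30 and was higher in 7 of 10 libraries, so the groups overlapped. Lhx2 changed by 1.65 ± 0.40, higher in 5 of 10 libraries.

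Of 49 transcription factors tested, 9 rose and 16 fell (6.73% and 6.21% of all genes), with a median of -0.29. Nr2f2, Zeb2 and Nfix were among those lower, at -3.89 ± 1.01, -2.94 ± 0.32 and -2.86 ± 0.50. Recognition and adhesion genes were higher in 7 of 65 and lower in 17, with a median of -0.46. Cdh13, T-cadherin, changed by 3.18 ± 0.31 and Cdh12 by -3.47 ± 0.66. Sema3a, a secreted guidance cue, had no UMI in Slc6a9-side Penk cells, which puts it at least 1.84-fold lower than in their Penk = 0 cells, at a floor of 3 counts over the group.

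Among release genes 7 of 34 rose and 3 fell, against 6.73% and 6.21% of all genes tested. Cplx3, the complexin of many glycinergic amacrine cells, was at 514.8, 860.6 and 1195 CPM against 2028, 2195 and 3610.5 CPM and changed by -1.60 ± 0.10. Syt6, a synaptotagmin, changed by 3.16 ± 0.45. Of 13 immediate early genes tested, 4 rose and none fell, with a median of 0.50. Egr1 changed by 1.16 ± 0.21 and Btg2 by 1.35 ± 0.22. Glul and Apoe, genes of the Müller glia list, changed by 0.88 ± 0.16 and -1.27 ± 0.29, in opposite directions.

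**Figure D4:**
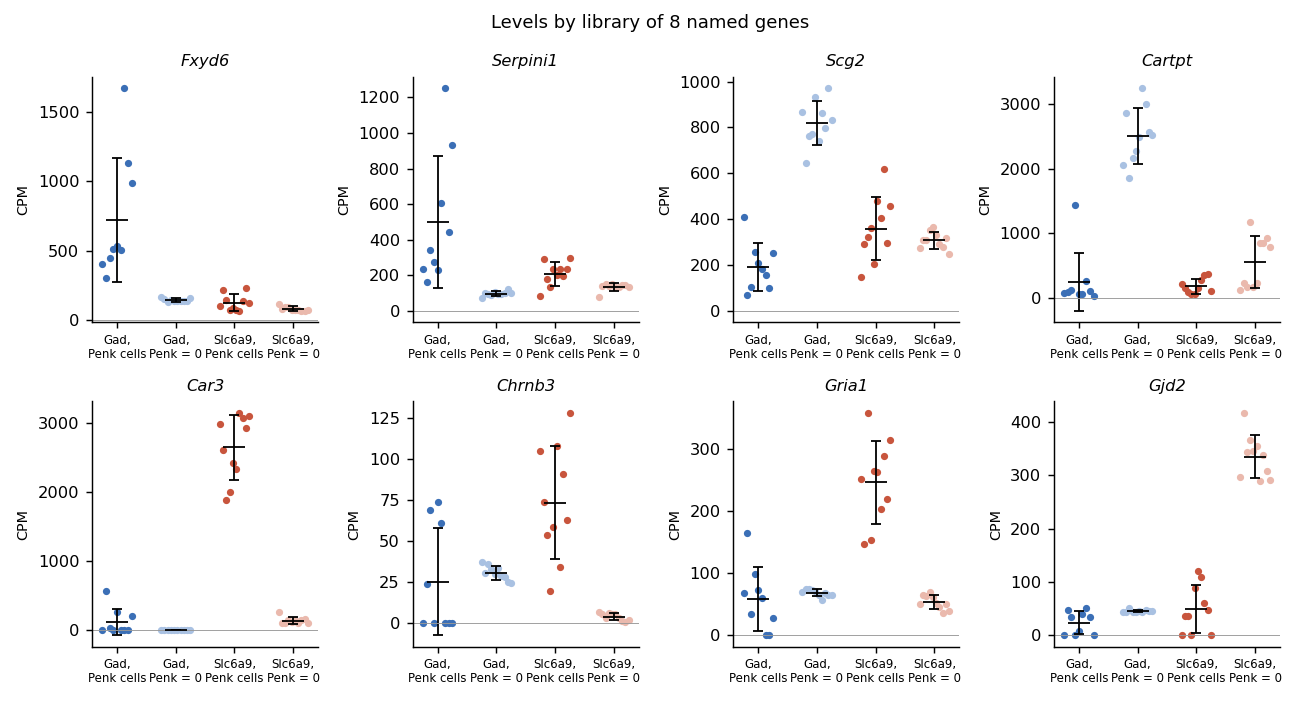
Levels in CPM by library (points) of 8 named genes in Penk cells and Penk = 0 cells of each gate, with mean ± SD (black; n = 9 libraries for Gad-side Penk cells and 10 for each other group). Fxyd6 and Serpini1 are high in Gad-side Penk cells, Scg2 and Cartpt low there, and Car3, Chrnb3 and Gria1 are high and Gjd2 low in Slc6a9-side Penk cells against their own Penk = 0 cells.

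No opioid receptor gene could be tested but Oprl1, the nociceptin receptor. Of 8 opioid system genes, Penk and Pdyn were left out of the tests by choice. Of the rest, only Pomc and Oprl1 had enough counts, and neither passed in any of the 4 comparisons. Oprl1 was at a median of 17.2 CPM in Gad-side and 14.9 CPM in Slc6a9-side Penk cells. No UMI of Oprm1, Oprd1 or Oprk1, for the mu, delta and kappa receptors, was counted in either group of Penk cells. The largest level of these 3 genes over the Penk = 0 cells of either gate was 0.709 CPM, for Oprm1, below the 4.60 CPM that 3 UMIs would make in the Slc6a9-side Penk cells, so a lower level was not detectable at this depth.

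Set directly against each other, Slc6a9-side and Gad-side Penk cells differed in 732 of 9121 genes (8.03%), of which 329 were higher on the Slc6a9 side (3.61%) and 403 lower (4.42%). The difference between the gates themselves is part of this comparison. Within batches 439 passed in batch 2 and 321 in batch 3. Without the cells of more than 2 times their library's median UMI total 349 passed, and without cells that held 3 markers of another class 280 did.

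Car3 and Ppp1r17 were among the genes with the largest log2 differences that were higher on the Slc6a9 side. Ppp1r17, a phosphatase inhibitor known from cerebellar Purkinje cells, was at 763.5, 1139 and 1891 CPM there and at 0, 0 and 187.7 CPM on the Gad side, with no overlap and a log2 difference of 4.71 ± 0.36 (edgeR adjusted p = 1.27e-15, n = 9 libraries). Krt24, a keratin, differed by 5.34 ± 0.62, and Car3 by 4.26 ± 0.28. No UMI of Chrna3, a nicotinic subunit, was counted in Gad-side Penk cells. It ran from 21.0 through 71.5 to 84.8 CPM on the Slc6a9 side and was at least 9.55-fold higher there. Fam150b was likewise at 0 on the Gad side and at least 8.62-fold higher on the Slc6a9 side.

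On the Gad side Meis2, a homeobox factor, was at 476.6, 828.9 and 1177 CPM, and on the Slc6a9 side at 0, 15.4 and 110.3 CPM. The groups did not overlap, and the log2 difference was -4.96 ± 0.35. Cbln2, a cerebellin, was at 93.9, 629.1 and 967.1 CPM against 0, 18.5 and 36.8 CPM and differed by -5.03 ± 0.38. Neither gene passed between Gad-side Penk cells and Gad-gate Penk = 0 cells, where Meis2 had a mean of 854.6 CPM and 798.8 CPM.

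Of 45 voltage-gated channel genes, 15 were lower on the Slc6a9 side and 1 higher, with a median of -0.56. Of 65 recognition and adhesion genes 21 were lower and 2 higher, with a median of -1.23. Over all genes 4.42% were lower and 3.61% higher, with a median of -0.01. The potassium channel genes Kcnd2 and Kcnip1 differed by -3.91 ± 0.81 and -3.19 ± 0.42. C1ql2, a secreted C1q-like protein of synapses, differed by -5.77 ± 0.64. Igfbp2 and Igfbp4 differed in opposite directions, by -3.90 ± 0.35 and 3.76 ± 0.35. Among peptide processing genes Cpe, carboxypeptidase E, was higher on the Slc6a9 side by 0.55 ± 0.11 and Scg2 by 1.02 ± 0.25.

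The change that went with Penk differed between the sides in 545 of 9121 genes (5.98%). In this test of the difference the Slc6a9-side change exceeded the Gad-side change in 292 genes (3.20%) and was below it in 253 (2.77%), or 382 and 208 with TMM factors over all genes. Within batches 292 passed in batch 2 and 319 in batch 3.

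Scg2, Nppc and Apela were among them. Scg2 was lower in Gad-side Penk cells and at 147.1, 343.3 and 621.3 CPM in Slc6a9-side Penk cells against 249.1, 310.7 and 365.0 CPM in their Penk = 0 cells, and its changes differed by 2.35 ± 0.25 (edgeR adjusted p = 2.09e-10). Of the 15 vesicle genes, 5 differed with the greater change on the Slc6a9 side, 1 the other way and 9 did not pass. Over all genes the shares in these directions were 3.20% and 2.77%. Of the 10 neuropeptide genes, Nppc alone passed. Nppc and Apela differed by 4.31 ± 0.79 and 4.18 ± 0.67, and Igfbp4 by 4.32 ± 0.35.

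Kcna1 was at 56.4, 137.7 and 193.1 CPM in Gad-side Penk cells against 230.0, 248.4 and 266.1 CPM, and at 36.8, 134.6 and 187.7 CPM in Slc6a9-side Penk cells against 47.2, 66.4 and 89.2 CPM. Set directly against each other, the Penk cells of the 2 sides differed by 0.01 ± 0.27 on the log2 scale and did not pass, and the changes differed by 1.86 ± 0.27. Barhl2, a homeobox factor of amacrine cells, was at 227.6, 348.1 and 470.9 CPM in Slc6a9-side Penk cells and at medians of 68.3 to 76.3 CPM in the other 3 groups. Its changes differed by 2.27 ± 0.21.

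In the other direction Serpine2 and Pcdh8 differed by -3.45 ± 0.48 and -3.39 ± 0.48, and Chn2 by -2.97 ± 0.45. Gfra1, a GDNF receptor, and Ntng1, netrin-G1, differed by -3.61 ± 0.65 and -3.39 ± 0.60. Gria1, Grin2a and Chrna6 differed by 2.29 ± 0.29, 2.45 ± 0.34 and 3.23 ± 0.49.

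Of the genes tested, 60 passed on both sides, 36.1% of the Gad-side calls and 5.08% of the Slc6a9-side calls. Of all 9121 genes, 12.9% passed on the Slc6a9 side and 1.82% on the Gad side. Among the 60, Penk cells were higher on both sides in 29 and lower on both in 6. The 29 include Car3, 2010007H06Rik, A930001A20Rik and Bnc2. Most of their Gad-side UMIs (46, 6, 56 and 6) lay in the 4 cells of the clusters that led the Slc6a9 side. Calca had 1 UMI there and 4 in other clusters. Serpini1, also among the 29, was a leading gene of the Gad side's own cluster. Whether the rest of the 29 came from few cells was not tested. The genes lower on both included Calb2, Cartpt, Lmo4 and Pcsk2, though Cartpt on the Slc6a9 side did not pass without library 4, 7 or 10 (edgeR adjusted p up to 0.0650). In 15 genes, Serpine2, Pcdh8, Ptprt and Chn2 among them, Penk cells were higher on the Gad side and lower on the Slc6a9 side. In the other 10, with Kcna1 and Snap25, the order was reversed.

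**Figure D5:**
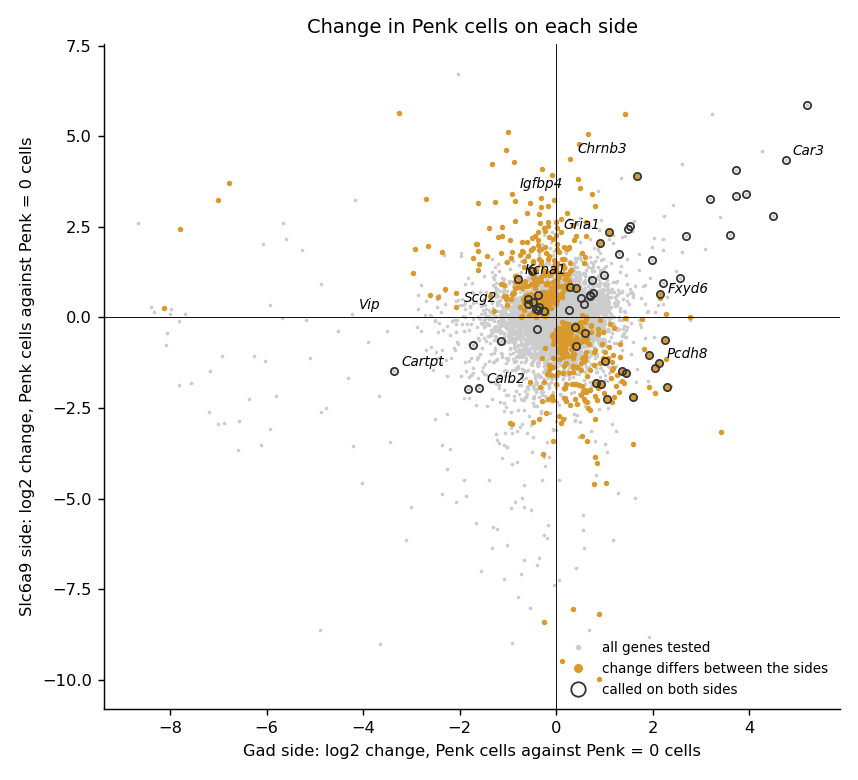
Log2 change between Penk cells and Penk = 0 cells on the Gad side (horizontal) and the Slc6a9 side (vertical) for all genes tested (grey), genes whose change differed between the sides (orange, 545 genes) and genes that passed on both sides (open circles, 60 genes). Labelled genes are named in the text; Pcdh8 lies right and below the origin, Gria1 and Igfbp4 above it, and Calb2 and Cartpt to the lower left.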

How the data were processed

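Single cells were profiled with 10x Genomics 3′ chemistry, and one deposited table of counts (UMIs per gene and cell) was used, made with Cell Ranger 2.1.0 on mouse build mm10 per the submitters' processing notes. No source used here states the annotation, the filters on cells or a doublet removal. The authors deposited raw counts, which were checked to be whole. Every cell column mapped to a library.

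Penk cells, gates and gene lists were chosen with earlier results of these data known. Counts were summed per library and group where a library held at least 3 cells, which left out library 2 of the Gad-side Penk cells. Sums were tested in edgeR 4.0.16 under R 4.3.3 (quasi-likelihood test after filterByExpr, with the library as block; adjusted p under 0.05 by Benjamini-Hochberg), with 1 fit for the 4 groups. The 4 groups of a library come from the same suspension, so the library pairs them. TMM factors were computed over the 2233 genes counted in every sum. This choice was made after a test on simulated data, where TMM over all genes shifted the median log2 change by -0.28 on the Gad side and -0.22 on the Slc6a9 side; TMM over all genes is given as an alternative. The SE of a log2 change is its size over the square root of the F statistic. CPM are unscaled. Summed counts per library limit precision most on the Gad side, with 3 to 15 cells a library.

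Clusters came from scanpy 1.11.5 and leidenalg 0.10.2 (3000 variable genes within libraries, 50 components, 20 neighbours, resolution 3), which gave 72 clusters. The 7 genes of the rule and markers, sex-linked, mitochondrial, ribosomal, haemoglobin and rod genes were kept out of the clustering. Leading genes were ranked by the ratio of CPM with 20 CPM added. Thinning drew UMIs without replacement.

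For each comparison the text names genes from the 10 highest and 10 lowest log2 changes among called genes that moved one way in every library with both groups and reached a mean of 50 CPM in the higher group, and up to 4 called genes of each list; opioid genes and the 4 proposed markers are named whatever their values. Car3 and 2010007H06Rik on the Gad side, and genes passing on both sides, were chosen after their values were seen. Coordinates are from GENCODE M21 (GRCm38). Alternatives included DESeq2 1.42.0, limma 3.58.1 (voom), other gates, depths, filters, batches and each library left out. Some genes are not reported here.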

Additional observations from a re-analysis of the deposited data

Results flagged for a closer look

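The values by library of 43 groups were checked for a library far from the rest, of which chance would pick about 5%, and 4 stood apart. Cartpt reached 1441 CPM in library 5 (others 28.2 to 260.5 CPM) and Vip 64.4 CPM in library 6 (others up to 19.7 CPM), both in Gad-side Penk cells, where each gene was lower than in Penk = 0 cells. Grin2a reached 315.1 CPM in the Slc6a9-side Penk cells of library 1, against 57.5 to 183.9 CPM. In library 10, 87.0% of cluster 40 were Penk cells, against 40.9 to 61.5% in the other libraries.

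The change that went with Penk differed between the sides, by a test of the difference, in 545 genes.

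The comparisons used no Penk cell outside the gates, and there were 176 of these. Of them, 85 lay in cluster 40 and 19 in cluster 66. The 85 had pooled levels of 443.5 CPM for Penk, 1306 CPM for Car3, 447.6 CPM for Gad1 and 565.2 CPM for Slc6a9, and a median depth of 6749 UMIs. The 101 with at least 2 Gad UMIs and Slc6a9 had a median of 13032 UMIs. Whether they are doublets was not tested.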

How the results depend on the processing

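Of 248 called changes of named genes, 176 to 248 kept call and direction under each alternative, and 217 to 239 with a library left out. The Gad side held less well. Of its 43 named calls, 20 were kept among cells at or above the library median depth. With Penk of at least 3 UMIs 24 were kept, and without cells with 3 markers of another class also 24. Every library could be left out for 25 of these 43, against 70 of 78 on the Slc6a9 side. Reversed values were those of Npy (0.25), Grm2 (0.0050) and Tacr1 (0.012) between the sides and Prox1 (4.39) for the difference of changes, all in batch 3 alone, and of Dab1 (7.39) for the difference of changes without cells above 2 times the median depth; the cause was not tested. Numbers of genes called follow. On the Gad side there were 107 with Penk of at least 3 UMIs, 41 among cells at or above the library median depth, 94 in batch 2 alone, 503 with TMM over all genes (61 higher, 442 lower, median -0.22) and 1982 with limma voom (1846 higher, 136 lower, median 0.25), against 227 with DESeq2 (174 higher, 53 lower). On the Slc6a9 side there were 621 in batch 2 alone, 2389 with voom (median 0.12) and 1475 with TMM over all genes (434 higher, 1041 lower, median -0.17). Between the sides there were 418 with Penk of at least 3 UMIs, 452 among the deeper cells, 349 without cells above 2 times the median depth, 280 without cells with 3 markers of another class, 439 in batch 2, 321 in batch 3 and 2213 with voom. For the difference of changes the same settings gave 363, 345, 349, 315, 292, 319 and 2412, and TMM over all genes gave 382 above and 208 below. Without the replicate block the counts were 138, 1124, 719 and 508 in the order of the comparisons above. Leaving out each library gave 107 to 172, 999 to 1173, 607 to 688 and 481 to 527, and leaving out libraries 5 and 6 together 118, 1026, 527 and 422. That setting, voom, TMM over all genes and the removal of shared barcodes were chosen after seeing the data. The Pdyn share was 28.8% on the Gad side without thinning, and 0% on the Slc6a9 side at 1500 UMIs. The shares in the leading clusters ran from 39.0 to 51.0% and from 73.2 to 76.4% with a library left out. Gad-side Penk cells limit the depth: 3 UMIs in all of them make 6.58 CPM.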
